A study of Vitis vinifera with 2 samples.

Results

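Very short intergenic transposable elements (TEs) were examined in grapevine embryogenic callus (EC) and leaf. A TE was counted as very short when the end minus the start of its listed position was under 200 bp, and as intergenic when the authors' division placed it outside gene annotations. The rule used positions alone, with no methylation value. It took in 43647 of the 184251 TEs listed for any cytosine context (23.7%), and 31.0% of the 140848 intergenic TEs. They were listed for the CG context in 13911 cases, for CHG in 13168 and for CHH in 43431, where H is A, C or T.

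The samples were from Vitis vinifera cv. Chardonnay, and their DNA methylation had been read by bisulphite sequencing of the whole genome, with 1 EC library and 1 leaf library. The EC was a proliferating culture started from anthers, with material of several Petri dishes pooled, and it is a mass of dividing cells from which embryos can be raised. The leaf library came from young leaves, pooled as well, of the vines that gave the anthers, so that tissue and growth in dark culture cannot be told apart. Each value is the share of cytosines read as methylated over a TE, given here as a percentage, so that a difference of EC minus leaf is in percentage points. Words such as change, gain, loss, rise, fall or step describe this difference alone. Anthers were not among the samples and leaf is not the starting state of the EC, so the order of events is unknown. With 1 library per tissue there was no replicate check and no test between tissues, and the TEs are not replicates of a tissue. The number of reads and cytosines behind each value is unknown. A spread given below is therefore one over TEs or over the 19 chromosomes within these libraries.

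Plants methylate cytosines through separate pathways, which makes the context of a cytosine informative. CG methylation is copied onto the new DNA strand by the methyltransferase MET1, and CHG methylation is maintained by CHROMOMETHYLASE 3 together with a histone mark of silent chromatin. CHH methylation has no such template and is renewed either by CMT2 in heterochromatin or by RNA-directed DNA methylation, in which small RNAs guide DRM2, often at short TEs and at the edges of long ones. Many annotated TEs of this size are fragments of longer elements or short non-autonomous copies, which encode no proteins of their own. The deposited tables give no TE names, so the families of the members were not analysed here.

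The members ran in length between 11 and 199 bp, with a median of 126 bp and quartiles of 90 and 162 bp. Together they spanned 5437717 bp, against 106002522 bp for the 97201 longer intergenic TEs. Strands were even, with 49.4% of members on the plus strand. Unplaced sequences, which are tied to a chromosome but not to a place on it, held 4.27% of them. Length went with the contexts in which a member was listed. Over CHH alone 24954 members were listed (57.2%), with a median length of 119 bp, and 8323 (19.1%) were listed in all 3 contexts, with a median of 146 bp. Among the longer intergenic TEs, 61.1% were listed in all 3 contexts. The CG and CHG values therefore describe a minority of the members, 31.9% for CG and 30.2% for CHG, whereas CHH values cover 99.5%. The CHH change hardly differed between these listings, at 30.3 points in members listed for CHH alone and 29.1 points in members listed in all 3 contexts.

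CHH methylation was higher in EC than in leaf at nearly every member, as it was over all TEs. It averaged 33.1% ± 19.2 in EC and 3.08% ± 5.71 in leaf (SD over 43431 TEs), a difference of 29.98 points with an SD of 0.719 over chromosomes. The quartiles of the EC level were 18.9% and 45.9%, and those of the leaf level were 0 and 3.61%, so the middle ranges of the tissues did not overlap. EC was higher in 42081 members (96.9%), where all TEs gave 97.1%, lower in 472 (1.09%), where all TEs gave 1.13%, and equal in 878. By at least 10 points, EC was higher in 36880 members (84.9%), where the share over all TEs was 81.0%, and lower in 34 (0.0783%), where that over all TEs was 0.0375%. In EC, 2.50% of members were listed at 0 in this context, against 29.4% in leaf. Over all TEs these shares were 2.12% in EC and 16.7% in leaf.

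The CHG context, with maintained methylation typical of silent TEs, was spread widely in both tissues. CHG methylation averaged 63.5% ± 30.02 in EC and 56.7% ± 28.5 in leaf (SD, 13168 TEs), with medians of 72.9% and 64.1% in EC and leaf. The mean difference was 6.73 points with an SD of 1.98 over chromosomes, smaller than the SD of 23.6 points over TEs. EC was higher in 65.7% of members and lower in 31.0%, against 65.5% and 31.8% (higher and lower) over all TEs. Differences of at least 10 points upward in EC were counted at 5611 members (42.6%), close to the 42.2% of all TEs, and downward at 2292 (17.4%), where all TEs gave 19.5%. These shares lay near those of the whole series, which pools unlike sets, and are not read here as a trait of the short TEs. By at least 10 points, EC was higher in 53.6% of longer intergenic TEs and lower in 11.4%. Among TEs under 200 bp that overlap genes, it was higher in 11.3% and lower in 32.8%. The classes of highest level held more members in EC. Levels of 90% or more took in 12.4% of members between 90% and 95% and 9.16% above that in EC, against 5.31% and 2.23% in leaf. These classes of level were not counted in other TEs.

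CG methylation was high in both tissues, and the tissues differed little. It averaged 83.4% ± 21.2 in EC and 80.3% ± 22.4 in leaf (SD, 13911 TEs). The mean difference was 3.08 points with an SD of 1.47 over chromosomes, and the median difference was 2.11 points. Of the members, 2980 (21.4%) were higher in EC by at least 10 points and 1590 (11.4%) were lower. Over all TEs those shares were 18.1% and 9.10%. High levels of 60% or more in EC and leaf alike were found in 11587 of the members (83.3%), where all TEs gave 88.9%, and low levels under 20% in both were found in 376 (2.70%), where all TEs gave 1.31%.

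**Figure D1:**
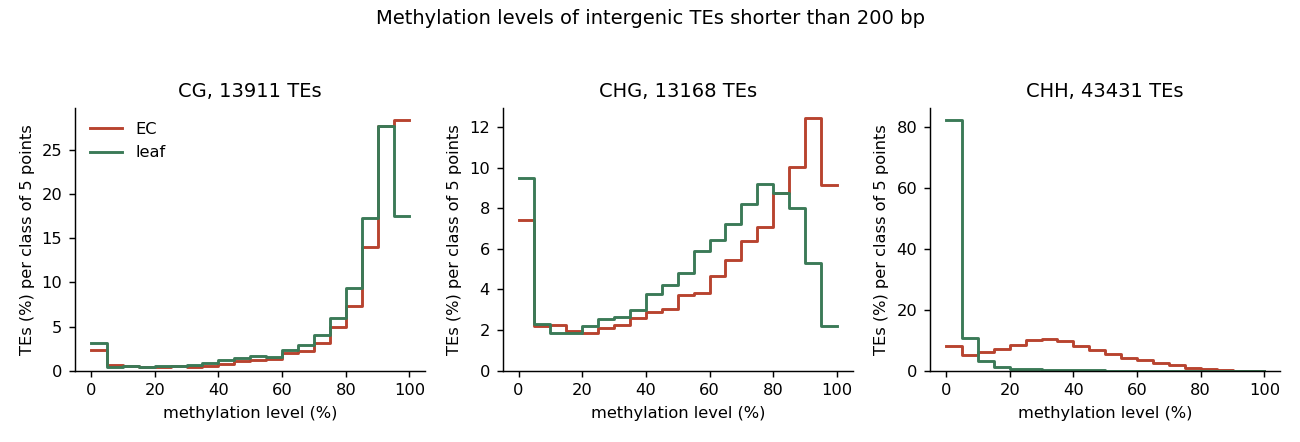
Distribution of the methylation level of the members in classes of 5 percentage points, as the share of members (vertical axis), for CG, CHG and CHH, with EC in red and leaf in green. In CHH, 82.4% of leaf values lie below 5%, where 8.01% of EC values lie, while the CG curves of the tissues nearly coincide apart from the highest class (28.3% in EC, 17.5% in leaf).

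The difference between tissues was then followed along TE length and compared with longer intergenic TEs and with the 15008 short genic TEs, which are the TEs of the same size that overlap gene annotations. The short intergenic TEs changed slightly less than the longer ones on average in CHG and CHH. Their CHG change of 6.73 points compared with 9.71 points in longer intergenic TEs, a difference of -2.98 points that was negative on 19 of 19 chromosomes, between -6.22 and -0.939 points. Their CHH change of 29.98 points compared with 32.3 points, a difference of -2.32 points that was again negative on 19 of 19 chromosomes. Where only TEs that reached 20% in leaf or EC were counted, the sign of the CHH difference turned, at 1.10 points. In CG the difference was -0.382 points, negative on 11 chromosomes and positive on 8, so that no direction held along the genome. Against the next longer intergenic TEs, those of 200 to under 500 bp, the differences were 0.371 points in CG, -0.554 points in CHG and -0.736 points in CHH, so the comparison rested largely on much longer TEs.

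The change differed more between short intergenic and short genic TEs than it did between short and longer intergenic TEs. Short genic TEs averaged 23.3% CHG methylation in EC and 32.1% in leaf, a change of -8.76 points, against 6.73 points in the short intergenic TEs. The intergenic change exceeded the genic one by 15.5 points in CHG and by 17.6 points in CHH, and on 19 of 19 chromosomes in both contexts. In CG it exceeded the genic one by 3.20 points, also on 19 of 19 chromosomes, with a lowest value of 0.294 points on chromosome 4. The sizes depended on the measure. By the median the differences were 1.35 points in CG, 6.86 points in CHG and 23.2 points in CHH, and among TEs with at least 20% in leaf or EC they were 23.9 points in CHG and 3.89 points in CHH. The EC level of short TEs in CHH was thus 33.1% outside genes and 13.9% within them.

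Within the members, the mean CHH change hardly varied with length, the mean CG change was highest at 150 to 199 bp, and the spread over TEs was wide at every length. In members of under 50 bp the CHH change was 31.1 points, and it was 29.2 points at 50 to 99 bp, 30.8 points at 100 to 149 bp and 29.6 points at 150 to 199 bp. The CG change was 1.13, 2.03, 2.18 and 4.51 points in the same classes in that order. The CHG change was lowest at 50 to 99 bp, at 5.09 points, and 7.82, 6.40 and 7.71 points in the other classes. Short TEs varied more among themselves than long ones did. The SD of the CG change over TEs was 15.7 points under 50 bp, 19.05 points at 150 to 199 bp and 6.87 points in intergenic TEs of 5000 bp or more. For CHH the SD was 18.9 points in the shortest class and 5.98 points in the longest. Listing at exactly 0 also went with length, and in leaf CHH it applied to 40.6% of members under 50 bp and to 23.4% at 150 to 199 bp. The number of cytosines per TE is unknown, and its part in the wider spread was not tested.

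**Figure D2:**
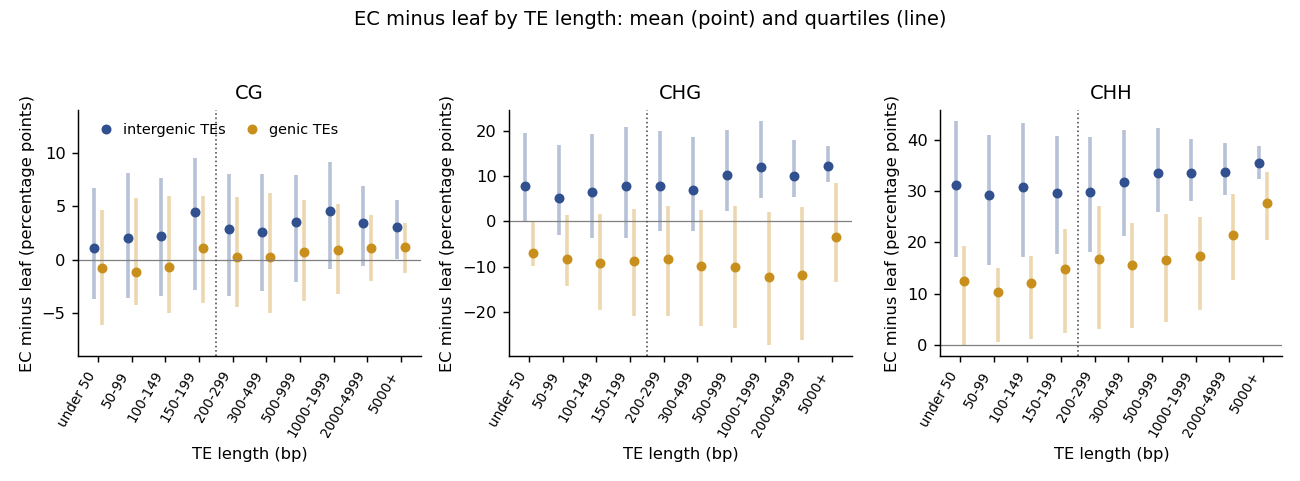
EC minus leaf in percentage points (vertical axis) by class of TE length in bp (horizontal axis) for intergenic TEs (blue) and genic TEs (yellow), as the mean (point) and the quartiles over TEs (line), with the dotted line at 200 bp. The intergenic mean lies above the genic mean in every length class and context, and the step at 200 bp is small beside the quartiles.

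The limit of 200 bp itself marked no step. Members of 190 to 199 bp had a CG change of 3.55 points, a CHG change of 7.74 points and a CHH change of 28.9 points. Intergenic TEs of 200 to 209 bp had 3.80, 6.81 and 29.9 points in those contexts.

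Single lengths stood out within this even picture. Copies of one repeat can share a length, and 52 exact lengths between 86 and 189 bp were each held by 300 or more members. Their mean CG change had a median of 2.30 points over the 52 lengths, and the lowest was -2.15 points at 141 bp. At 4 lengths it was above 10 points. Members of 164 bp averaged 84.2% CG methylation in EC and 71.6% in leaf, a change of 12.6 points (n = 169). Members of 172 bp averaged 87.6% in EC and 74.4% in leaf, a change of 13.2 points (n = 179). At 181 bp the levels were 81.4% in EC and 65.5% in leaf, and the change was 15.9 points (n = 129). At 183 bp they were 84.4% in EC and 65.9% in leaf, and the change of 18.4 points was the largest of the 52 (n = 135). EC levels at these 4 lengths lay within the range of the other common lengths or at its upper end, whereas their leaf levels were the 4 lowest of the 52. These lengths were picked after their values had been seen, and the numbers describe them without a test.

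The 164 bp members were split rather than shifted as a whole. In CG, 123 of 169 were at 60% or more in both tissues, while 22 were under 20% in leaf and at 60% or more in EC. The median change of the 164 bp members was 3.27 points and the SD was 32.1 points. At 172 bp, 4 of 179 made that full step and 35 made a smaller one, between 20% and 60% in leaf and 60% or more in EC. The median change at 172 bp was 8.40 points. Over all members listed for CG, 83.3% were high in both tissues, 1.11% made the full step and 726 of 13911 made the smaller one. Over all TEs, 88.9% were high in both tissues and 0.408% made the full step. The 172 bp members also had the largest CHG change of the common lengths, with 67.8% in EC and 47.6% in leaf, a change of 20.2 points (n = 172).

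**Figure D3:**
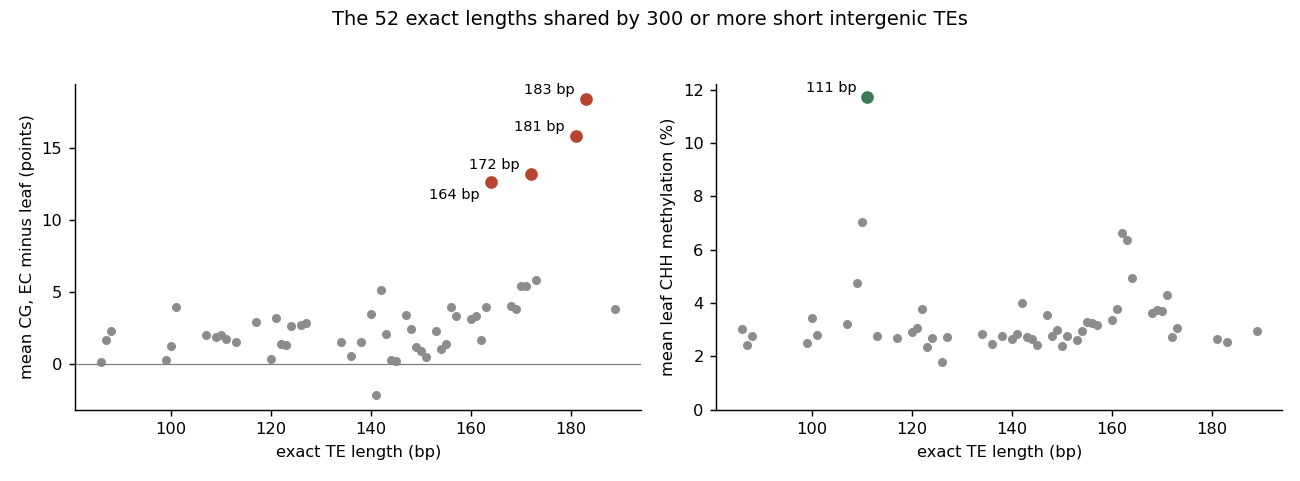
Each point is 1 of the 52 exact lengths held by 300 or more members, with length in bp on the horizontal axis. Left, mean CG change of EC minus leaf in percentage points, with 164, 172, 181 and 183 bp in red, all above 12 points where the median of the lengths is 2.30. Right, mean leaf CHH methylation in %, with 111 bp in green at 11.7%.

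The same members were next placed relative to their neighbours, since the 164 bp members that gained CG methylation stood beside other TEs. A gap of 16 bp to another listed TE on the same strand was found for 295 members (173 listed for CG, 155 for CHG and 294 for CHH), spread over all 19 chromosomes. In CG these averaged 87.8% in EC and 45.2% in leaf, a change of 42.6 points, against 83.4% in EC, 80.8% in leaf and 2.59 points in members without such a neighbour. In CHG they averaged 68.3% in EC and 29.5% in leaf, a change of 38.8 points, against 6.35 points in the others. In CHH the order was turned. Their CHH change was 23.5 points, against 30.03 points in the others, with EC at 25.8% and 33.1%. The leaf level in CG varied widely among them, with a median of 45.5% and quartiles of 18.1% and 72.8%, against a median of 88.9% in the others. In EC their median was 89.5% in CG and 70.02% in CHG, against 91.3% and 73.0% (CG and CHG) in the others. These TEs thus had lower CG and CHG levels in leaf, similar ones in EC, and less CHH methylation in EC.

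Other gaps did not match this value. Every gap between 0 and 60 bp was looked at in the same way, and over the other 60 gaps the mean CG change lay between -2.75 points at 56 bp and 21.9 points at 24 bp. The CHG change lay between 3.17 points at 56 bp and 31.0 points at 22 bp, and the CHH change between 26.3 points at 22 bp and 36.3 points at 10 bp. The numbers behind single gaps were uneven, with 13 to 523 members listed for CG. The gap of 16 bp was chosen after these values had been seen. Since the members of a pair are neighbours and may be copies of one repeat, they are not independent of each other. Near-identical copies can also share reads, and the part of this in the values was not tested.

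**Figure D4:**
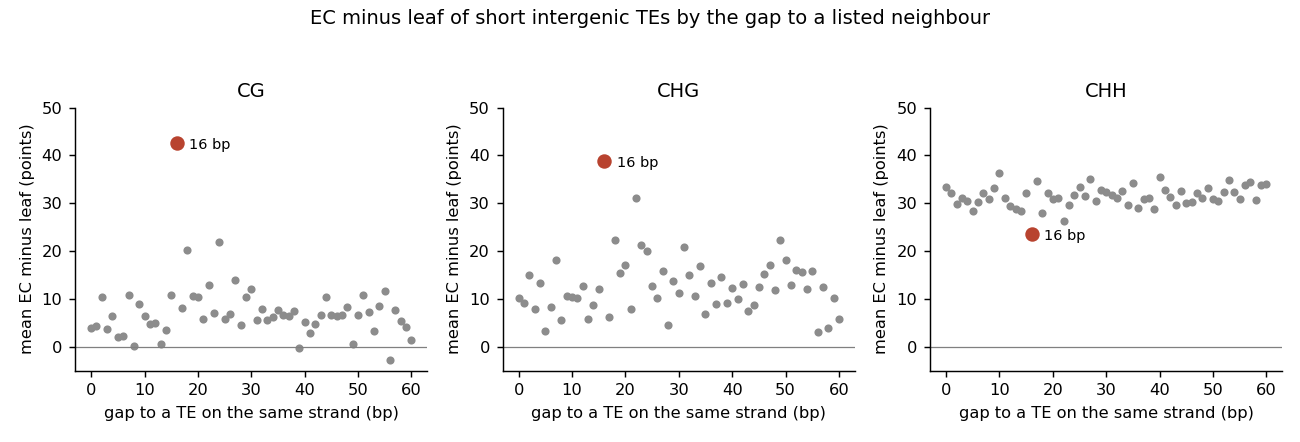
Mean EC minus leaf in percentage points (vertical axis) of members that have a listed TE on the same strand at an exact gap in bp (horizontal axis, 0 to 60 bp), for CG, CHG and CHH, with 16 bp in red. The red point is the highest of the 61 gaps in CG (42.6) and CHG (38.8) and the lowest in CHH (23.5).

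The CG change was larger with the 16 bp neighbour at each of the 4 lengths, to unequal degrees. Of the 164 bp members, the 25 with such a neighbour had 87.4% CG methylation in EC and 7.70% in leaf, a change of 79.7 points, and the 144 without one had 83.7% in EC and 82.7% in leaf, a change of 1.003 points. The quartiles of the leaf level, 0.590% and 8.96% with the neighbour and 82.9% and 93.2% without it, did not overlap. Length and gap had both been chosen after the CG values were seen, so this separation is no separate support. At 183 bp the change was 56.7 points in 32 members with the neighbour and 6.54 points in 103 without it. At 172 bp it was 35.1 points in 31 members and 8.63 points in 148. At 181 bp only 6 members had such a neighbour, with 38.0 points, and the 123 without it still changed by 14.8 points. All 22 of the 164 bp members that were under 20% in leaf and at least 60% in EC had such a neighbour. The CG change at 164 and 183 bp thus lay largely with the paired members, that at 172 bp only in part, and that at 181 bp mostly with members outside such pairs. Longer intergenic TEs with such a neighbour differed less from the rest, with 86.1% in EC and 75.3% in leaf, a mean change of 10.7 points and a median of 3.43 points (n = 246). The 9 of them with a length of 208 bp averaged 81.8% in EC and 9.77% in leaf, and this length was chosen because it recurred in the pairs.

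The lengths on either side of the 16 bp gap recurred. Of 227 pairs of TEs, taken in the direction of the strand, 25 joined a TE of 183 bp to one of 172 bp, 11 joined 164 bp to 190 bp, 9 joined 164 bp to 164 bp, 9 joined 208 bp to 164 bp, and 7 joined 181 bp to 172 bp. The remaining pairs were of many other combinations, 151 different ones in all. The 9 pairs of 164 bp with 164 bp lay on 9 different chromosomes, and the starts of their members were 180 bp apart in each. Of their 18 TEs, 15 were listed for CG, with EC levels between 77.1% and 91.6% and leaf levels between 0 and 18.7%. The 8 listed for CHG were between 58.2% and 70.0% in EC and between 0 and 12% in leaf. EC and leaf did not overlap in either context in these pairs. Their length and gap had been chosen after the CG changes were seen, so this separation is no separate support. One of the pairs lay on chromosome 16 of the 12X PN40024 reference genome, at chr16:7576060-7576224 and chr16:7576240-7576404 on the plus strand, outside annotated genes. Its members were at 88.3% and 88.8% CG methylation in EC, against 0.740% and 0.590% in leaf. In CHH they were at 10.5% and 11.7% in EC, against 2.02% and 1.38% in leaf, below the mean EC level of the short intergenic TEs.

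Members with low CG methylation in leaf and high CG methylation in EC were counted over the whole set. Under 20% in leaf and at least 60% in EC were 155 of 13911 members (1.11%), while the share over all TEs was 0.408%. Of these 155, 49 (31.6%) had a neighbour at 16 bp, which 1.24% of the members listed for CG had. The 4 lengths of 164, 172, 181 and 183 bp made up 44 of the 155 (28.4%) and 4.40% of the members. Both the gap and the lengths had been chosen after their CG changes were seen. Their larger shares among the 155 are therefore no separate support. The gains lay on all 19 chromosomes. The opposite step, at least 60% in leaf and under 20% in EC, was seen in 77 members (0.554%), while the share over all TEs was 0.249%. It was also seen in 24 of 4309 short genic TEs and in 128 of 66569 longer intergenic TEs. The larger share was thus not particular to short TEs outside genes. The 77 members had little CHH methylation in EC, with a median of 2.50% in EC and 0.520% in leaf.

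CHH methylation in leaf was absent or low for most of the short TEs. The exceptions were spread over many lengths and were most frequent at a few of them. At least 20% in leaf was reached by 986 of 43431 members (2.27%), while the share over all TEs was 1.11%. Their median CHH level was 62.0% in EC and 28.1% in leaf. Members of 109 to 111 bp made up 211 of the 986 (21.4%) and 2.86% of all members listed for CHH. Of the 111 bp members, 146 of 582 (25.1%) were at 20% or more in leaf, and their mean was 48.8% in EC and 11.7% in leaf, both the highest of the 52 common lengths. The median leaf level at 111 bp was 4.51%, with quartiles of 0.677% and 19.99%, so most of these members were low in leaf like the others. A smaller rise of the leaf level was seen at 162 to 164 bp, which held 107 of the 986 (10.9%). Both ranges of length were chosen for a mean leaf CHH level over 4.5%, so these larger shares are no separate support. Most of the 986 lay outside both ranges. The largest CHH change among the common lengths was at 126 bp, with 41.4% in EC and 1.79% in leaf, a change of 39.6 points (n = 399), and at 111 bp the change was 37.1 points (n = 582).

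The surroundings of a member were described by its distance to the nearest intergenic TE of 1000 bp or more, with TEs of the tables alone taken into account. The distance classes were chosen after the values had been seen, so agreement between chromosomes is no separate support here. Methylation in CG and CHG was higher close to such TEs in both tissues. CHG methylation averaged 81.2% in EC and 70.1% in leaf for members that overlapped or touched one, 71.1% and 58.9% (EC and leaf) farther than 200 bp and up to 1000 bp away, and 50.7% and 48.4% (EC and leaf) beyond 20000 bp. The CHG change was 11.1, 12.2 and 2.34 points in these classes in that order. On chromosomes 1 to 19, the members within 1000 bp changed by 11.3 points and those beyond 20000 bp by 2.38 points, a difference of 8.88 points that was positive on 19 of 19 chromosomes. In CG the members within 1000 bp changed by 5.20 points and those farther than 20000 bp by 0.372 points, and the difference of 4.83 points was positive on 17 of 19 chromosomes. By class the CG change was 2.86 points in members that overlapped or touched a long TE, 3.11 points up to 200 bp away, 7.19 points farther than 200 bp and up to 1000 bp away, and 0.437 points beyond 20000 bp, so the members nearest to long TEs did not change the most. The CG difference of 4.83 points between near and far members was 4.32 points without the members that had a neighbour at 16 bp. In CHH the difference between members within 1000 bp and those beyond 20000 bp was 2.16 points, positive on 17 of 19 chromosomes. The CHH change was 34.4 points in members that overlapped or touched a long TE and 28.9 points beyond 20000 bp, with EC levels of 37.7% and 32.6%. In between it was 32.3 points up to 200 bp away, then 29.5, 29.8 and 29.7 points in the classes up to 1000, 5000 and 20000 bp. The leaf CHH level on chromosomes 1 to 19 was 2.81% within 1000 bp and 3.69% beyond 20000 bp.

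**Figure D5:**
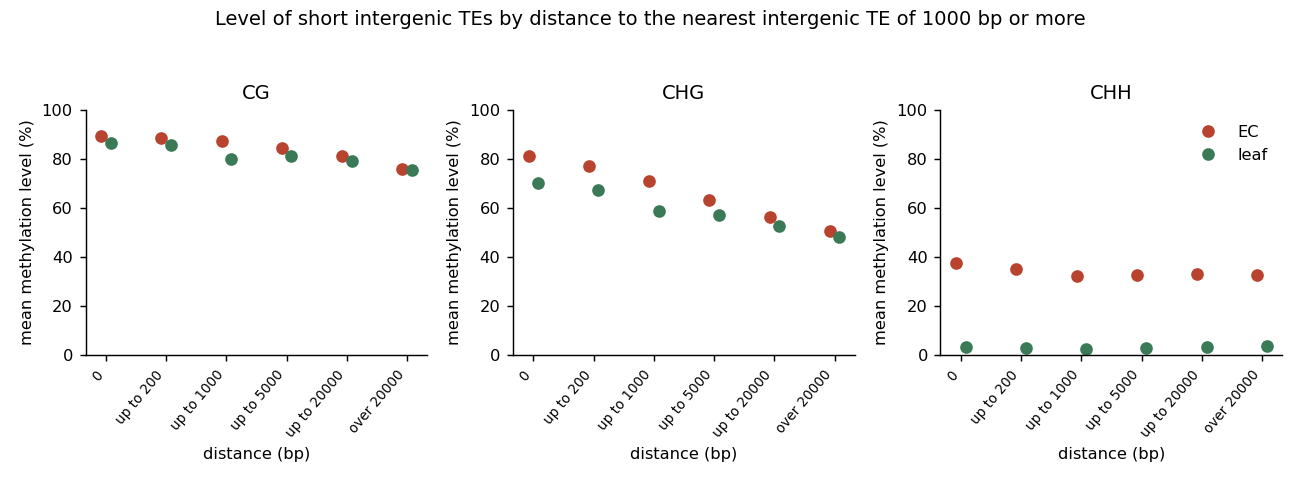
Mean methylation level in % of EC (red) and leaf (green) by distance in bp to the nearest intergenic TE of 1000 bp or more, for CG, CHG and CHH, with 0 for members that overlap or touch one. In CHG the tissues lie 11.1 points apart at 0 and 2.34 points apart beyond 20000 bp, while in CHH they lie 34.4 points apart at 0 and 28.9 points apart beyond 20000 bp.

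Overlap with another listed TE applied to 8158 members (18.7%). Their change was 5.10 points in CG, 11.5 points in CHG and 34.5 points in CHH, against 2.59, 5.47 and 28.9 points in the members with no overlap. In the overlapping members the value is partly shared with the other TE, since the same cytosines enter both.

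The contexts were compared within the 8323 members listed in all 3. High levels in both CG and CHG were found in 63.8% of them in EC and 52.4% in leaf, and CG high with CHG low in 5.68% in EC and 6.75% in leaf. These joint states were not counted in other TEs. Among TEs listed for CHG, high CHG was found in 79.6% of longer intergenic TEs in EC and 67.6% in leaf. The shares in short intergenic TEs were 63.9% in EC and 55.3% in leaf. Members divided by their leaf CHG level differed in the CHH level that EC reached. It was 19.5% where leaf CHG was under 20% (n = 1149), 33.4% where it was between 20% and 60% (n = 2675), and 36.4% where it was higher (n = 4499). The CHH change in these classes was 18.2, 29.4 and 31.7 points. Members low in leaf CHG thus had the smallest mean CHH change, and the quartiles of the change in this class, 3.34 and 28.5 points, overlapped those of the highest class, 22.6 and 39.8 points. Across the 8323 members, which share both libraries and many of which are neighbours, the change in CHG correlated with that in CG (Pearson's r = 0.405) and in CHH (r = 0.334), and the changes in CG and CHH correlated little (r = 0.078).

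Single members showed how far the values could lie apart. They were drawn by rank, 20 in all, from the 7894 members listed in all 3 contexts on chromosomes 1 to 19, and their positions are those of the 12X PN40024 genome. The largest CG rise was at a TE of 113 bp on the minus strand (chr18:25873121-25873234), with 98.45% in EC and 0 in leaf, where CHG was 13.0% in EC and 0 in leaf and CHH was 10.6% in EC and 0 in leaf. The next was a TE of 186 bp (chr5:24462369-24462555), with CG at 96.15% in EC and 0 in leaf, CHG at 66.7% in EC and 20.6% in leaf, and CHH at 44.4% in EC and 11.3% in leaf. The gain of CG methylation was thus accompanied by high CHG and CHH methylation at one of them and by little at the other. The largest CG fall was at a TE of 160 bp (chr18:7549344-7549504), listed at 0 in EC and 100% in leaf, where CHG also fell, to 1.47% in EC, against 81.4% in leaf, and CHH was 7.65% in EC and 3.94% in leaf.

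The largest CHG rise, at a TE of 145 bp (chr19:15487625-15487770), was of another kind. Its CHG level was 91.7% in EC and 0 in leaf, while CG was 86% in EC and 95% in leaf, so CG methylation had been present in both tissues. Conversely, a TE of 165 bp (chr19:5268534-5268699) had the largest CHG fall, with 6.32% in EC and 94.2% in leaf, while its CG level was 96.4% in EC and 89.2% in leaf. Its CHH level was 1.70% in EC and 0.600% in leaf. In CHH the largest rise was at a TE of 36 bp (chr13:23435280-23435316) that overlapped another TE, with 85.5% in EC and 0 in leaf. The largest CHH fall in this ranking was at a TE of 162 bp (chr19:2229858-2230020), with 45.3% in EC and 58.7% in leaf. Over all members listed for CHH the largest fall was -64.07 points, at a TE of 155 bp (chr12:21667269-21667424) with 23.8% in EC and 87.9% in leaf, which was looked up after the values were seen. The member nearest to the median of the changes in all 3 contexts, a TE of 198 bp (chr18:18171167-18171365), had CG at 91.0% in EC and 88.6% in leaf, CHG at 80.3% in EC and 72.7% in leaf, and CHH at 31.3% in EC and 2.51% in leaf. The shortest member in this ranking was 15 bp long (chr13:22691595-22691610), with CHH at 38.9% in EC and 0 in leaf. None of the 20 TEs drawn by rank, including those not described, had a neighbour at a gap of 16 bp.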

How the data were processed

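According to the methods of the study, BS-Seeker2 was used to map the bisulphite reads to the grapevine reference PN40024 (12X). The authors then called methylation and averaged it per TE with cgmaptools, required an effective coverage over 20 in EC and leaf alike, and divided TEs by overlap with genes using bedtools. The deposited values are fractions between 0 and 1 and were multiplied to percent. Read numbers per TE, and hence the depth at each TE, are unknown. Very similar copies can share reads, and mapping Chardonnay reads to another genotype can lower apparent methylation. Whether positions count from 0 or 1 is not given in the sources used here. Average profiles over TE and gene bodies were not used.

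Tissues were assigned from the labels. Means, shares and counts (differences of at least 10 points, with low under 20% and high at least 60%) were computed with pandas 2.3.3 and numpy 2.4.6 in Python 3.11.15, without tests, since each tissue has 1 library. The functions were tested on simulated data. Gaps and distances refer to listed TEs. Single TEs were named by rank: the largest rises and falls per context, the longest, the shortest and those nearest to the median. The members and lists were chosen with earlier results of these data known, and the exact lengths, the 16 bp gap and the distance classes after the values were seen. Sequences were not analysed here, and neither were TE families. Alternatives were the median, other lengths, other minimum differences, minimum levels and TEs listed in all 3 contexts.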

Additional observations from a re-analysis of the deposited data

How the results depend on the processing

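Of 99 values recomputed under another choice, 60 stayed within the spread over chromosomes, the Wilson 95% interval of a share or 1.5 times a count, 37 moved and 2 changed sign. The difference in change between short and longer intergenic TEs turned to 0.371 points in CG against TEs of 200 to under 500 bp, and to 1.10 points in CHH among TEs with at least 20% in leaf or EC. In CHG it shrank to -0.554 points against TEs of 200 to under 500 bp. In CHH it was -0.736 points against TEs of 200 to under 500 bp, -3.82 against those of 1000 bp or more, -3.85 by the median and -4.27 among TEs listed in all 3 contexts. The CHH change was 37.7 points among members with at least 20% in leaf or EC, 29.1 in those listed in all 3 contexts and 28.9 without overlap. The intergenic minus genic difference was 1.35 points in CG, 6.86 in CHG and 23.2 in CHH by the median, and 23.9 in CHG and 3.89 in CHH with at least 20% in leaf or EC. Counts followed their limits. At 20 points, CG gave 1325 higher and 737 lower, CHG 3183 and 1444, and CHH 11 lower. At 5 points, CG gave 5026 higher and 2764 lower, and CHH 76 lower. Among members listed in all 3 contexts, CG gave 1624 higher and 843 lower, CHG 3732 and 1395, and CHH 7426 and 2. The share listed at 0 in members under 100 bp was 1.73% in EC and 3.05% in leaf for CG, 6.32% and 7.60% (EC and leaf) for CHG, and 3.58% and 37.0% (EC and leaf) for CHH. In members listed in all 3 contexts it was 2.91% in EC and 4.69% in leaf for CHG, and 1.06% in EC and 10.9% in leaf for CHH. Removing members with a neighbour at 16 bp, a choice made after seeing the data, left mean changes of 2.59, 6.35 and 30.03 points in CG, CHG and CHH, and removing the 4 lengths of largest CG change, likewise chosen afterwards, left 2.55, 6.33 and 30.02 points. The causes of these shifts were not tested. No paired analysis was possible because each tissue has 1 library and no result comes from a test. No other library could be left out, so variation between vines, cultures and library preparations is not covered by any spread given.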

Other observations

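Members near each other had similar changes. Over pairs of neighbouring members, which share both libraries and can share reads, Pearson's r of the change was 0.602 in CG (852 pairs), 0.682 in CHG (786 pairs) and 0.595 in CHH (5164 pairs) where the gap was under 200 bp. At gaps of 5000 to 20000 bp it was 0.044 in CG, 0.089 in CHG and 0.063 in CHH.

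Chromosome 6 was the one chromosome on which the CG level of the short intergenic TEs was lower in EC, with 80.2% in EC and 81.4% in leaf, a change of -1.20 points (n = 504). Its longer intergenic TEs changed by -1.66 points. The other 18 chromosomes had positive changes in the short TEs, up to 5.01 points on chromosome 10. In CHG the change was positive on every one of the 19 chromosomes, between 3.26 points on chromosome 9 and 10.2 points on chromosome 10, and in CHH it lay between 28.8 and 32.1 points.

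Members on sequences without a position on a chromosome changed by 4.91 points in CG (n = 655), 8.80 points in CHG (n = 628) and 30.2 points in CHH (n = 1856).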
